A study of Homo sapiens with 3 samples.

Results

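The CXC chemokines described here are 10 genes, CXCL1, CXCL2, CXCL3, CXCL5, CXCL6, IL8 (the array's name for CXCL8), CXCL10, CXCL11, CXCL12 and CXCL14, out of 30982 gene names on the array. They were picked by symbol, with earlier readings of these arrays already known, so that all of their values are a description and none is a test. The 10 symbols have 16 probes, and every one of them is given. In 5 genes the signal was lower in melanoma bodies than in either monolayer, and in 4 of these the monolayer regrown from the bodies stood above the original one.

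1205Lu is a human melanoma line derived from a lung metastasis that WM793 cells formed as a xenograft in a mouse. The original monolayer (OM) was kept 14 days in RPMI with 10% fetal calf serum. Melanoma bodies (MB), which are adherent spheroids, were grown 14 days in medium for human embryonic stem cells (hESC) with 20% knock-out serum replacement. The new monolayer (NM) came from melanoma bodies after 14 days in hESC medium that were then given 10 days of the serum medium of OM, and leftover bodies were taken away before RNA was prepared. All 3 populations are the same line with no added gene or drug. Each is 1 culture on 1 array, so medium, growth form, time in culture and the chance differences of a single culture cannot be told apart, and no p-value can be given. The bodies of MB were collected by physical detachment, so the way of collection also differed between the arrays. RNA came from each collected population in bulk, in which fewer expressing cells and less RNA per cell cannot be told apart.

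Chemokines are small secreted proteins that guide migrating cells, and CXC chemokines carry a single residue between their first conserved cysteines. Those with a glutamate-leucine-arginine (ELR) motif before the cysteines, CXCL1, CXCL2, CXCL3, CXCL5, CXCL6 and IL8, attract neutrophils and promote vessel growth through the receptors CXCR1 and CXCR2. CXCL1 was first described as melanoma growth stimulatory activity, and melanoma cells are known to secrete it together with IL8. CXCL10 and CXCL11 lack the motif, are induced by interferon and attract T cells through CXCR3. CXCL12 acts through CXCR4, and CXCL14 is a non-ELR chemokine made by epithelia and fibroblasts. Transcription of the ELR genes is classically driven by NF-kB, often with AP-1, downstream of interleukin 1 and tumour necrosis factor.

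The ELR genes sit in 1 cluster on chromosome 4, and the promoters of 6 of them are shown because they share a motif. CXCL5, by its brighter probe alone, did not share the course of CXCL1, CXCL2, CXCL3 and IL8, and CXCL6 was at background. The sequences are those of RefSeq (GRCh38.p14), written 5′ to 3′ on the strand of the gene, with the match to the NF-kB motif GGAATTTCC and any flanking base of the longer NF-kB consensus in capitals. The following windows lie upstream of the start of CXCL1 (chr4:73869285-73869353, plus strand), CXCL2 (chr4:74099234-74099302, minus), CXCL3 (chr4:74038729-74038797, minus), IL8 (chr4:73740448-73740516, plus), CXCL5 (chr4:73998729-73998797, minus) and CXCL6 (chr4:73836559-73836627, plus).
CXCL1: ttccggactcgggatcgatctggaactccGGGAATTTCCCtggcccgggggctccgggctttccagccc
CXCL2: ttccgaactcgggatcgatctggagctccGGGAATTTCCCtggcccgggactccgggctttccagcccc
CXCL3: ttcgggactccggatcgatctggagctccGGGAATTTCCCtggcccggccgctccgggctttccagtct
IL8: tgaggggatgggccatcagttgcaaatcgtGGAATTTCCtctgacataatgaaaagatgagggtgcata
CXCL5: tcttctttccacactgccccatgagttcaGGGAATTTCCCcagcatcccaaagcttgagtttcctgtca
CXCL6: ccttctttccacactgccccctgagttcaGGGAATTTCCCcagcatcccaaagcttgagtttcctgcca

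GGAATTTCC, on either strand, was found between 250 bases before and 50 after the start in 8 of the 10 genes, against 0.461% of 35114 promoters of the same length. It began 78 bases before the start in CXCL1 and CXCL3, 77 in CXCL2, 91 in IL8, 90 in CXCL5 and 89 in CXCL6. In CXCL10 and CXCL11 it was read on the opposite strand, beginning 176 and 75 bases before the start. CXCL12 and CXCL14 did not hold these letters in this window. The windows above, aligned at the motif over 69 bases, were the same at 66 positions in CXCL5 and CXCL6, 62 in CXCL1 and CXCL3, 56 in CXCL1 and CXCL2 and 26 in CXCL1 and IL8. A match of letters does not show that a factor binds there.

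The other gene with the AP-1 motif TGANTCA, CXCL11, was at background on all arrays and is not shown. The motif is shown in capitals for IL8 (chr4:73740402-73740468, plus) and CXCL14 (chr5:135579047-135579113, minus). They were picked as the genes with the lowest ratios of MB to OM by the brightest probe, so no link between motif and signal is read from them.
IL8: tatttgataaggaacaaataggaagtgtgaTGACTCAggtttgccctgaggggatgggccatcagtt
CXCL14: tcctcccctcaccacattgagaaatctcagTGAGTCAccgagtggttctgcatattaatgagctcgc

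TGANTCA stood in 3 of the 10 promoters, those of IL8, CXCL11 and CXCL14, against 7.71% of all promoters. It began 137 bases before the start in IL8, 87 in CXCL11 and 92 in CXCL14. The NF-kB consensus, which overlaps GGAATTTCC in most of these promoters, was found in 7 of 10 genes against 11.3% of all promoters. TATAAA was found in 2 (IL8 and CXCL11) against 11.5%, and the interferon response core GAAANNGAA in 3 (CXCL2, CXCL3 and CXCL10) against 8.11%.

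Signals are in arbitrary units (a.u.) as deposited, background-subtracted and unscaled. For folds, the arrays were first brought to the same mean over the housekeeping genes ACTB, GAPDH and HSP90AA1, so that MB was divided by 0.978 and NM by 0.877 and OM was kept. Across probes printed in 10 spots, the spot-to-spot SD of a log2 ratio was 0.07 for signals above 100 a.u., a 1.05-fold difference, and 0.24 between 30 and 100 a.u. This spread does not hold the differences from culture to culture. Of 41000 probes, 64.7 to 71.0% were well above background on each array. The lowest such signal was 20.9 a.u. in OM, 19.4 in MB and 29.1 in NM. A fold against a signal not reaching this floor is a lower bound, written as "at least". It is a bound only under this scaling and background subtraction, and some alternatives gave smaller folds. Probe positions are in hg17 as the files give them, and exon or intron annotation of that build was not used here.

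Of the 16 CXC probes, 8 were well above background on all 3 arrays, from the 6 genes CXCL1, CXCL2, CXCL3, CXCL5, IL8 and CXCL14. The other 8 were not well above background on any array, with signals from 4.04 to 16.1 a.u. No spot of these probes was saturated or marked as an outlier. The level of one probe cannot be set against that of another, so that only changes across the arrays are compared.

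**Figure D1:**
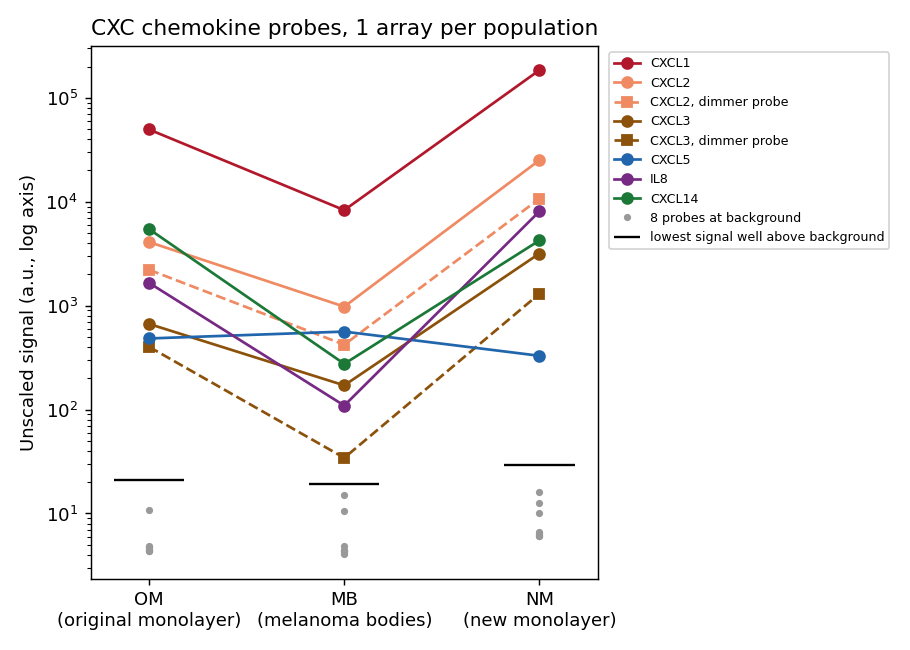
Unscaled signal (a.u., log axis) of the 16 CXC probes on the OM, MB and NM arrays, 1 array each, with lines joining the 8 probes measured on all arrays, grey points for the 8 at background and black bars for the lowest signal called well above background on each array. The lines of CXCL1, CXCL2, CXCL3, IL8 and CXCL14 dip at MB, those of the first 4 end higher at NM than at OM, and CXCL5 runs nearly flat.

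Among the ELR ligands, CXCL1 (NM_001511, chromosome 4, 75101885 to 75101944, plus strand) gave 49621 a.u. in OM, 8306 in MB and 184837 in NM. The signal was thus lowest in MB and highest in NM. After scaling it was 5.84-fold lower in MB than OM (log2 ratio -2.55), 24.8-fold lower in MB than NM, and 4.25-fold higher in NM than OM (log2 ratio 2.09).

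CXCL2, a close relative of CXCL1, has a pair of probes. The brighter one (NM_002089, chromosome 4, 75328020 to 75328079, minus strand) read 4097 a.u. in OM, 979 in MB and 25117 in NM. The dimmer one (75329377 to 75329436) read 2215, 421 and 10702 a.u. in the same order. Both probes put MB lowest and NM highest. The brighter gave 4.09-fold lower in MB than OM, 28.6-fold lower in MB than NM and 6.99-fold higher in NM than OM, and the dimmer 5.14-fold, 28.3-fold and 5.51-fold. In MB over OM the log2 ratios of the probes differed by 0.33, which is 3.12 times the technical SD of such a difference.

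CXCL3, the remaining member of that trio, also has a pair of probes (NM_002090, minus strand of chromosome 4). The brighter, whose bases lie over 875 bases of genome from 75268026 to 75268900, read 667 a.u. in OM, 171 in MB and 3178 in NM. The dimmer, at 75267737 to 75267796, read 401, 34.3 and 1302 a.u. The order of the arrays was the same for both, but the size was not. The brighter gave 3.81-fold lower in MB than OM and the dimmer 11.4-fold, a log2 difference of 1.59, larger than the technical SD of 0.24 for signals as dim as that of the dimmer probe in MB. Against NM, MB was 20.7-fold lower by the brighter and 42.3-fold by the dimmer probe, and NM was 5.43-fold and 3.70-fold higher than OM. The MB signal of the dimmer probe was close to background, and with normexp background correction its log2 ratio of MB to OM was -2.10 in place of -3.52 and that of MB to NM -3.82 in place of -5.40.

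CXCL1, CXCL2 and CXCL3 are close paralogs, and how far their probes pick up each other's RNA was not tested. The probes of different CXC genes that were most alike were the dimmer CXCL2 and the brighter CXCL3 probe, with 30 of 32 overlapping bases the same and a longest shared run of 17 of the 60 bases.

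IL8, the best known neutrophil attractant of the family (NM_000584, chromosome 4, 74974300 to 74974359, plus strand), read 1657 a.u. in OM, 109 in MB and 8082 in NM. It had the widest span of the 8 probes between its highest and its lowest array. MB was 14.8-fold lower than OM (log2 ratio -3.89) and 82.4-fold lower than NM, and NM was 5.56-fold higher than OM (log2 ratio 2.48). With normexp correction the log2 ratio of MB was -3.28 against OM and, in place of -6.37, -5.70 against NM.

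CXCL5, which lies between CXCL1 and CXCL3 on the chromosome, did not share this order. Its probe at 75226933 to 75226992 (NM_002994, minus strand) read 484 a.u. in OM, 563 in MB and 330 in NM. The log2 ratio of MB to OM was 0.25 with the housekeeping genes and -0.03 when scaled to spike-in probes, so the direction was not settled. MB was 1.53-fold higher than NM and NM 1.29-fold lower than OM, all under 2-fold. The other CXCL5 probe (75228092 to 75228151) was at background with 4.55, 4.14 and 6.22 a.u., so the probes disagree and the order given for CXCL5 rests on the brighter one. CXCL6 (NM_002993, 75068403 to 75068462), whose upstream window is nearly that of CXCL5, was at background with 4.83, 4.47 and 6.62 a.u. on OM, MB and NM.

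CXCL14 (NM_004887, chromosome 5, minus strand) has a probe whose bases fall within 134935428 to 134938190, a stretch of 2763 bases. It read 5457 a.u. in OM, 275 in MB and 4244 in NM. The monolayers were close to each other and MB stood apart. MB was 19.4-fold lower than OM (log2 ratio -4.28) and 17.2-fold lower than NM, while NM over OM was 0.887 (log2 ratio -0.17). CXCL14 therefore returned to near its OM signal in NM, whereas CXCL1, CXCL2, CXCL3 and IL8 were 3.70 to 6.99-fold above it over their 6 probes. Whether the 2 courses differ beyond the variation between cultures could not be tested with 1 array each.

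The interferon-inducible ligands were not detected. CXCL10 (NM_001565, chromosome 4, 77300113 to 77300172) read 4.49 a.u. in OM, 10.6 in MB and 16.1 in NM. The CXCL11 probes (NM_005409, 77312794 to 77312853 and 77313446 to 77313601) read 4.81, 4.33 and 12.7 a.u., and 4.36, 4.82 and 6.08 a.u. All were below the lowest signal well above background, so no fold is given. CXCL12, the ligand of CXCR4, has 3 probes on the minus strand of chromosome 10, all at background. Its probe printed in 10 spots (NM_199168, 44192894 to 44192953) had spots from 5.28 to 16.7 a.u. on OM (median 10.7), 10.5 to 21.4 on MB (median 15.8) and 6.31 to 16.1 on NM (median 9.75), and the ranges of the arrays overlapped. The others (44185623 to 44185682 and 44197436 to 44197495) read 4.04 to 6.42 a.u. The signals do not show absence of these RNAs, which may lie under the background of the array.

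To set these changes against the array as a whole, each gene was taken by its brightest probe, and 18094 genes exceeded 100 a.u. on some array, 6 of the 10 CXC genes among them. At 5-fold, 3 CXC genes (CXCL1, IL8 and CXCL14) were lower in MB than OM, where 0.680% of all genes were. At 2-fold there were 5, with CXCL2 and CXCL3 added, against 4.16%. None of the 6 was 2-fold higher in MB than OM, a change seen in 6.65% of genes. Lower in MB than NM were the same 5 genes at 5-fold, against 1.64%, and at 2-fold, against 10.2%, and 0 were 2-fold higher in MB than NM, against 13.5%. NM exceeded OM by 5-fold in 3 CXC genes (CXCL2, CXCL3 and IL8) against 0.741%, and by 2-fold in 4 with CXCL1 added against 4.23%. None was 2-fold lower in NM than OM, against 5.80%. Because these 10 genes were selected with such values in view, nothing is read from these shares. The 3 comparisons also share arrays pairwise and are not independent.

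By rank among genes with a value in the comparison, CXCL14 was number 8 and IL8 number 13 from the lowest in MB over OM, and CXCL1, CXCL2 and CXCL3 were 91, 170 and 194 of 18086. In MB over NM, IL8 was number 3, CXCL2 10, CXCL1 14, CXCL3 21 and CXCL14 34 of 18088. In NM over OM, counted from the highest of 18081, CXCL2 was 88, IL8 117, CXCL3 125 and CXCL1 153. The median log2 ratio of the 6 genes was -2.29 for MB over OM against 0.09 for all genes, -4.50 for MB over NM against 0.03, and 2.26 for NM over OM against 0.07.

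**Figure D2:**
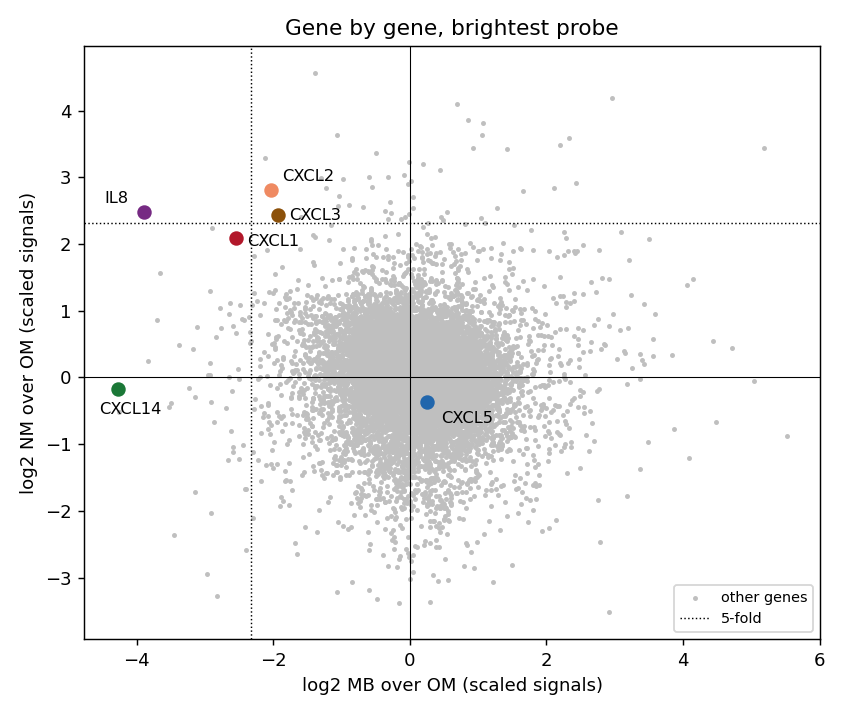
Log2 ratio of MB to OM (horizontal) against log2 ratio of NM to OM (vertical) of the scaled signals, by the brightest probe, for 17580 genes above 100 a.u. on some array and well above background on all 3 (grey points), with the 6 measured CXC genes in colour and dotted lines at 5-fold. CXCL1, CXCL2, CXCL3 and IL8 lie at the upper left, CXCL14 lies at the left near the line of no difference between NM and OM, and CXCL5 lies near the centre.

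The position of the chromosome 4 genes was then compared with their neighbours. From 500000 bases before IL8 to 500000 bases after CXCL11, a stretch of 3.34 Mb in hg17, the array has 74 probes, 12 of them for CXC genes listed here and 62 for 48 other genes. Of these 62, 25 were well above background on all arrays. None of the 25 was 5-fold lower in MB than OM, 3 were 2-fold lower with a signal above 100 a.u., and none was 2-fold higher in NM than OM. Over all genes these shares were 0.680%, 4.16% and 4.23%, and nothing particular to these neighbours is read from counts of this size. Their median log2 ratio was 0.05 for MB over OM, 0.11 for MB over NM and -0.02 for NM over OM.

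Within the 355 kb from the IL8 to the farther CXCL2 probe, the neighbouring chemokine genes of platelets were dim. PF4 read 37.4 a.u. in OM, 14.4 in MB and 18.7 in NM, of which only OM was well above background, and PPBP and PF4V1 were at background on every array. A probe with no gene name in the files, 196 kb from IL8 and between CXCL1 and PF4, read 5542, 4821 and 4838 a.u. The 3 neighbours 2-fold lower in MB were farther out, 2 probes of DKFZP564O0823 and 1 of ART3. The brighter DKFZP564O0823 probe read 962 a.u. in OM, 445 in MB and 315 in NM, and ART3 read 378, 104 and 113 a.u., so neither was raised again in NM. The epidermal growth factor receptor ligands of the region were also dim, AREG at 20.9, 59.6 and 19.2 a.u. and EREG at background.

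**Figure D3:**
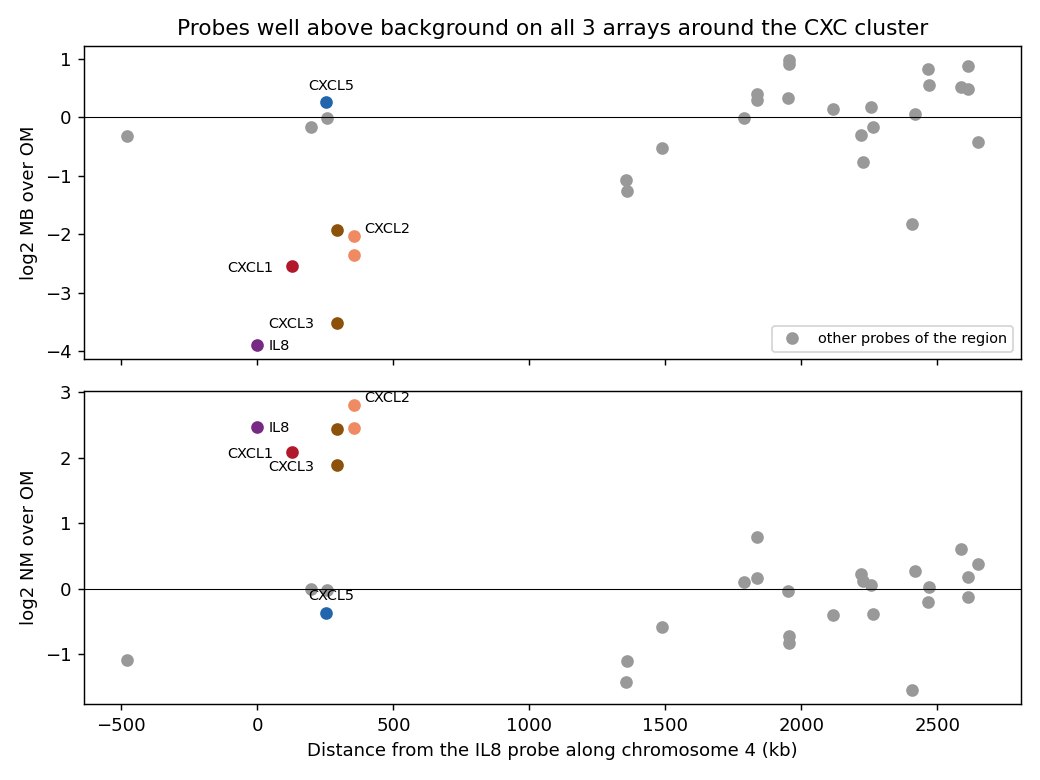
Log2 ratio of MB to OM (upper panel) and of NM to OM (lower panel) of the scaled signals for each probe well above background on all 3 arrays, against its distance from the IL8 probe along chromosome 4 in kb, with CXC genes in colour and the 25 other probes in grey. Within 355 kb of IL8 the probes of IL8, CXCL1, CXCL3 and CXCL2 lie apart from CXCL5 and from the unnamed probes between them, which stay near 0.

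None of the other 6 CXC ligands of the array was called at 2-fold, and CXCL16 was the 1 measured on all arrays. Of all genes, 4.16% were lower and 6.65% higher in MB than OM, and 10.2% and 13.5% in MB than NM. In NM over OM 4.23% were higher and 5.80% lower. With so few ligands measured, the absence of calls is not read as a result about them. CXCL16, a membrane-bound ligand of CXCR6, read 399 a.u. in OM, 522 in MB and 481 in NM. PF4, given above, stood lower in MB than in OM by at least 1.88-fold, with signals under 100 a.u. PF4V1, PPBP, CXCL9 and CXCL13 were at background on all arrays.

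Of the 9 chemokine receptors looked at, CXCR3 was measured on all arrays, at 48.7, 45.1 and 48.5 a.u. on OM, MB and NM. The gene for CXCR2, IL8RB on the array, read 279 a.u. in MB by 1 of its probes and background levels in the monolayers (4.98 a.u. in OM and 6.92 in NM), at least 13.7-fold and at least 8.61-fold higher in MB. Its other probe was at background on all arrays (5.09, 6.88 and 6.83 a.u.), so the probes disagree. Over the alternatives the log2 ratio of the brighter IL8RB probe ran from 2.10 to 3.77 for MB over OM and from 1.74 to 3.26 for MB over NM. CMKOR1, the scavenger receptor of CXCL11 and CXCL12 now called ACKR3, read 39.4 a.u. in OM, 17.8 in MB (background) and 462 in NM. It was at least 26.6-fold higher in NM than MB and 13.4-fold higher in NM than OM, and like CXCL1 it stood highest in NM. These sizes depended on the processing, the log2 ratio of NM to OM running from 2.48 to 3.86 and that of MB to NM from -4.92 to -2.80 over the alternatives. BLR1 (37.9 a.u.) and DARC (61.0 a.u.) were above background on MB alone, and IL8RA, CXCR4, CXCR6 and CCBP2 on no array.

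The genes of the NF-kB pathway had smaller folds than CXCL1, CXCL2, CXCL3 and IL8. Those chemokines were picked with earlier results known, so nothing is read from this contrast. All 15 subunits, inhibitors and kinases on the list were measured, and 0 of them differed 2-fold between MB and OM, with a median log2 ratio of 0.00, where 4.16% of all genes were lower and 6.65% higher in MB. Between MB and NM 4 of the 15 were lower in MB and 1 was higher, against 10.2% and 13.5% of all genes. This list too was chosen with earlier results known, and its counts are not read as a result about these genes. NFKBIA, the inhibitor that NF-kB itself induces, read 37679 a.u. in OM, 22425 in MB and 71192 in NM, 3.54-fold lower in MB than NM. Its 2.15-fold excess in NM over OM was the single call of the list in that comparison, where 4.23% of all genes were higher and 5.80% lower in NM. It fell under 2-fold with quantile normalization, no scaling and spike-in scaling. NFKB2 was 3.41-fold lower in MB than NM (1853, 929 and 2843 a.u. on OM, MB and NM), and the inhibitor NFKBIZ 2.31-fold (955, 676 and 1402 a.u.). RELB was 2.06-fold lower in MB than NM, under 2-fold with quantile normalization and with no scaling. NFKBIB went the other way, with 1102, 1819 and 653 a.u. TNFAIP3, another feedback inhibitor, read 571, 921 and 702 a.u. and passed no 2-fold. Protein activity of NF-kB was not measured.

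Of 10 inducers and their receptors, both interleukin 1 genes were lower in MB. IL1B read 235475 a.u. in OM, 45284 in MB and 330913 in NM, lower in MB by 5.08-fold against OM and by 8.14-fold against NM. Its order of arrays was that of CXCL1, with NM 1.60-fold over OM. IL1A read 707 a.u. in OM, 16.5 in MB (background) and 223 in NM, lower in MB by at least 35.6-fold against OM and by at least 12.8-fold against NM, and NM was below OM, with a ratio of 0.359. Over the alternatives the log2 ratio of IL1A ran from -5.44 to -3.18 for MB over OM and from -3.89 to -1.95 for MB over NM. TLR4, the receptor for bacterial lipopolysaccharide, was lowest in NM (942, 1361 and 299 a.u. on OM, MB and NM). The interleukin 1 receptor gene IL1R1 (695, 499 and 926 a.u.) was 2.07-fold lower in MB than NM, under 2-fold with no scaling, normexp correction or no background subtraction. TNF was above background on MB alone, at 29.9 a.u., and IL17C and TLR2 on no array. In all, 2 of the 10 were 2-fold lower and 0 higher in MB than OM, against 4.16% and 6.65% of all genes, and 3 lower and 1 higher in MB than NM, against 10.2% and 13.5%.

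For the interferon route to CXCL10 and CXCL11, 15 of 17 genes were measured on all arrays, and the ligands IFNB1 and IFNG were at background. None of the 17 differed 2-fold between MB and OM, where 4.16% of all genes were lower and 6.65% higher in MB. Between MB and NM 1 was lower and 0 higher in MB, against 10.2% and 13.5%. In NM over OM 2 were 2-fold higher, against 4.23%. Counts of this size are not read as a result about these genes. IRF1, a transcription factor induced by interferon, read 1455 a.u. in OM, 1008 in MB and 3534 in NM, 3.91-fold higher in NM than MB and 2.77-fold higher than OM. IFIH1, a sensor of double-stranded RNA, was 2.06-fold higher in NM than OM, and under 2-fold in 6 of the alternatives for scaling and background.

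Of 15 genes for chemokines of the CC, CX3C and XC classes, 6 were measured on all arrays. CCL2, the monocyte attractant, read 24537 a.u. in OM, 8406 in MB and 29462 in NM, 2.85-fold lower in MB than OM. It was the 1 call of the list in that comparison, where 4.16% of all genes were 2-fold lower. CCL20, the ligand of CCR6, read 1046, 698 and 6612 a.u., 10.6-fold higher in NM than MB and 7.21-fold higher than OM. The T cell and monocyte attractant CX3CL1 (5959, 7885 and 19347 a.u.) was 3.70-fold and CCL26 (56.1, 54.7 and 270 a.u.) 5.49-fold higher in NM than OM, though the log2 ratio of the dim CCL26 ran from 1.65 to 2.58 over the alternatives. At 2-fold NM thus exceeded OM in these 3 of the 15, against 4.23% of all genes, and at 5-fold in 2, against 0.741%. None of the 3 had a 2-fold lower signal in MB than OM. The list was chosen with earlier results known, so nothing is read from these shares. Against NM, MB was 2-fold lower in 4 of the 15, where 10.2% of all genes were.

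**Figure D4:**
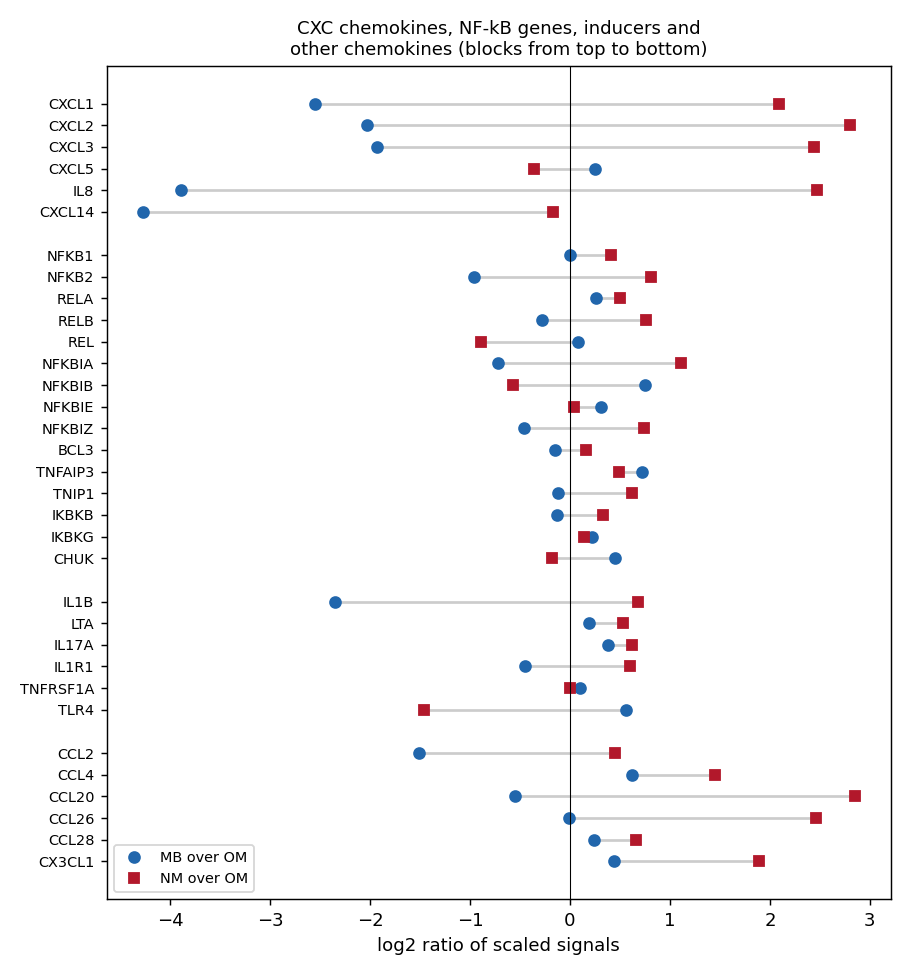
Log2 ratio of scaled signals, MB over OM (blue circles) and NM over OM (red squares), 1 array per population, for genes well above background on all 3 arrays, in blocks from the top of CXC chemokines, NF-kB pathway genes, inducers and receptors, and other chemokines. The circles of CXCL1, CXCL2, CXCL3, IL8 and CXCL14 lie between -4.28 and -1.93, whereas those of the NF-kB genes lie within 1 log2 unit of 0.

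The genes whose course over the 3 arrays was most like that of a CXC gene were found by the distance between the points of log2 MB over OM and log2 NM over OM, among 11538 other genes with RefSeq accessions measured on all arrays. Nearest to CXCL1 were DDIT3, a transcription factor of the stress response (distance 0.37, with 3790, 761 and 11755 a.u. on OM, MB and NM), the synaptic vesicle gene SV2B (0.39, with 1696, 222 and 7056 a.u.), and PAPPA, a protease of IGF-binding proteins (0.49, with 629, 144 and 2079 a.u.). EFCBP2 (0.80) and CASP1 (0.94) followed. IL8 had no gene as close, FAM49A being the nearest at 0.95 (705, 54.9 and 1823 a.u.), followed by SV2B at 1.02, STC2 at 1.62, DDIT3 at 1.73 and RGS9 at 1.82. Nearest to CXCL14 were CHAC1, which degrades glutathione (0.62, with 9743, 671 and 10163 a.u.), the matricellular CYR61 (0.80, with 52406, 4449 and 33941 a.u.) and the collagenase MMP1 (0.81), then COL13A1 (1.05) and AK5 (1.14). These are likenesses over 3 arrays and 2 ratios.

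Other cell types that make CXC chemokines were looked for by fixed markers. Of 8 melanocyte lineage markers 6 were above background on some array, among them SOX10 (6254, 9382 and 4887 a.u. on OM, MB and NM), MITF (423, 718 and 551 a.u.) and S100B, which was 2-fold higher in MB than NM. Of the pigment genes, SILV (286, 209 and 271 a.u.) and DCT (66.7, 62.8 and 64.1 a.u.) were above background on all arrays, MLANA was close to it and TYR and TYRP1 were at background. Of 6 leukocyte markers, PTPRC and LYZ were at background on all arrays and 4 were above it on all. CD14 read 70.3, 60.2 and 58.7 a.u. in OM, MB and NM, CSF1R 33.7, 42.9 and 42.6 a.u., and CD3E 110, 84.8 and 87.4 a.u. CD68, a lysosomal protein also found outside leukocytes, read 4716, 1727 and 4944 a.u., lower in MB by 2.67-fold against OM and by 3.19-fold against NM. It made up most of the summed signal of the 6 leukocyte markers, which was 4939 a.u. in OM, 1933 in MB and 5146 in NM. The endothelial marker CDH5 was at background, and VWF (185, 390 and 95.6 a.u.) carried most of the summed signal of the 4 endothelial markers, 229, 501 and 137 a.u. PECAM1 was above background in MB alone, at 87.7 a.u., higher than OM by at least 4.29-fold and than NM by at least 2.70-fold, under the minimum of 100 a.u. KDR went the other way, above background in OM alone at 26.7 a.u., with 14.4 in MB and 21.6 in NM. VWF was 3.66-fold higher in MB than NM and 2.15-fold higher in MB than OM, the latter under 2-fold in 5 of the alternatives. The keratinocyte markers KRT5, KRT1 and CDH1 were at background, and with KRT14 (213, 373 and 118 a.u.) the 4 summed to 238, 386 and 137 a.u. The leukocyte sum was lowest in MB and highest in NM, which among its measured markers was the course of CD68 alone. CD14 and CD3E were highest in OM, and CSF1R was lowest there. The endothelial and keratinocyte sums were highest in MB and lowest in NM, and VWF and KRT14 made up most of them. The part of other cell types in the CXC values was not tested.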

How the data were processed

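RNA of 3 populations of 1205Lu (OM, MB and NM, grouped by the labels) was amplified, labelled with Cy3 and hybridised to 3 Agilent 1-colour arrays on 1 slide, 1 per population. The authors deposited spot intensity values from Feature Extraction 9.5.3.1, linear and background-subtracted, with no scaling between arrays. The intensity values in the series table that the authors deposited were the same (130128 of 130128 within 0.1%) and served as an alternative. Control and outlier spots were left out, spots of a probe were averaged, and arrays were scaled to the mean of GAPDH, ACTB and HSP90AA1. Which HSP90 gene the study used is not given in the sources used here, and HSP90AA1 stands for it, having a probe in 10 spots.

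A gene passed at 5-fold or 2-fold if its brighter signal of the pair exceeded 100 a.u. With 1 array per population no test was run, and precision is limited by having 3 arrays. The members and lists were chosen with earlier results of these data known. Named are the 10 genes with every probe, list genes past 2-fold and a few others of each list for its state, the 5 genes nearest to CXCL1, IL8 and CXCL14, and genes of the chromosome 4 window. Genes use the name on the array, and 15 of the 16 CXC probes matched a current RefSeq accession. Promoters were matched by symbol (10 of 10). Protein sequences were not used here.

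Counts and folds were recomputed with 8 spike-in probes as the basis of scaling, with each array's 75th percentile, with no scaling, with quantile normalization, the geometric mean of the housekeeping genes, normexp (offset 50, limma 3.58.1 in R 4.3.3), no background subtraction, outlier spots kept, no minimum signal, signals at background as they stand, the mean of a gene's probes, and the deposited table. Python 3.11.15, numpy 2.4.6, pandas 2.3.3 and matplotlib 3.10.9 were used. The fold rule was run on simulated data with changes placed on bright signals and away from the thresholds. Changes in dim signals and lower bounds were not tried there.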

Additional observations from a re-analysis of the deposited data

How the results depend on the processing

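The number of CXC genes 5-fold higher in NM than OM was 3 as reported and 1 with no scaling, where CXCL2 alone passed. The unscaled NM array is dimmer in all 3 housekeeping genes than OM. Under the other 11 alternatives that count was 2 or 3, the count 5-fold lower in MB than OM was 3 or 4 (CXCL3 was added by the mean of its probes), and the counts 5-fold lower in MB than NM (5) and 2-fold higher in NM than OM (4) did not move. Some of these alternatives could hardly change a count. The deposited table held the same values, and no CXC spot was an outlier. The genes called were well above background on all arrays, so the minimum signal and the handling of background could not drop them. For single probes, the log2 ratio of MB to OM of IL8 ran from -4.18 with spike-in scaling to -3.28 with normexp, that of CXCL1 from -2.83 to -2.54, and that of the dimmer CXCL3 probe from -3.80 to -2.10, where the MB signal is near background. The direction of CXCL5 in MB over OM was not settled, from -0.03 to 0.25. Scaling moved the median log2 ratio of MB to OM over all probes from 0.11 with the housekeeping genes to -0.18 with spike-ins. The mean of probes, the minimum signal and the handling of signals at background bear on counts of genes and give no value per probe. No paired analysis was possible because each population has 1 array. Signals of CXCL6, CXCL10, CXCL11 and CXCL12 lay under the floor of each array, so no alternative gave them a fold.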

Other observations

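Among 11 genes that cleave chemokines or act on the decay of their RNA, the metalloproteases MMP1 and MMP9 were lower in MB. At 5-fold these 2 were lower in MB than OM, against 0.680% of all genes. At 2-fold 3 of the 11 were lower and 0 higher in MB than NM, against 10.2% and 13.5%. In NM over OM 2 were 2-fold higher, against 4.23%. The list was chosen with earlier results known, so nothing is read from these shares. MMP1 read 4367 a.u. in OM, 378 in MB and 2947 in NM, lower in MB by 11.3-fold against OM and by 8.68-fold against NM, and its ratio of NM to OM was 0.769. MMP9, which trims ELR chemokines, read 1448, 225 and 2460 a.u., lower in MB by 6.28-fold against OM and by 12.2-fold against NM, so that it was highest in NM as CXCL1 was. MMP2 was 2.35-fold higher in NM than OM (637, 984 and 1314 a.u. on OM, MB and NM). ZC3H12A, a ribonuclease that degrades inflammatory messenger RNAs, read 3117, 2218 and 5525 a.u., 2.78-fold higher in NM than MB, and its 2.02-fold excess over OM fell under 2-fold in 4 of the alternatives. ZFP36, which promotes the decay of AU-rich messenger RNAs, read 2136, 2125 and 1520 a.u. and passed no 2-fold, and DPP4, a peptidase that trims CXCL10 and CXCL11, was at background on all arrays.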
